A study of Zea mays with 18 samples.

Results

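The module holds the 150 maize genes that stood highest in zygotes at both 12 and 24 hours after pollination relative to the egg cell before them and the apical and basal daughter cells after them. They were chosen from 39475 gene IDs by their measured levels in CPM, that is, reads assigned to a gene divided by the total of the library and multiplied by 1000000. A gene qualified when its egg mean was at least 0.1 CPM, its 12 h mean was at least 4 times the egg mean, and its 24 h mean lay above 0.5 and below 2 times the 12 h mean. Of the 2354 IDs that qualified, the 150 kept had the largest log2 ratio of the lower zygote mean to the highest of the egg, apical and basal means, each with 1 CPM added. The contrasts among egg, zygotes and daughter cells therefore chose the genes and are given as descriptions with no test, whereas the sperm libraries played no part in the choice. The choice did not use the difference between apical and basal cells directly, but it kept genes low in both, which limits that difference.

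The cells came from untreated wild-type plants of the inbred line B73, and each group had 3 libraries of pooled, manually isolated cells. Egg libraries held 20 cells each, libraries of zygotes 12 hours after pollination 14 to 15, those of zygotes 24 hours after pollination 16 to 17, apical cell libraries 16 and basal cell libraries 13 to 14, and sperm libraries 1000. The times are read from the abbreviation hap in the labels, and nothing in the labels says that replicate libraries came from separate plants, so the spread between them may in part be technical. Polyadenylated RNA was copied and amplified by PCR from very little material, without molecular identifiers, and sequenced to between 11128444 and 25771168 assigned reads per library. Fewer cells and less RNA per cell cannot be told apart in such pools.

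After fertilization a plant zygote carries over RNA of the egg, with a small share from the sperm, and then begins to transcribe its own genome, which is called zygotic genome activation. The zygote rebuilds its cell wall, becomes polar, and divides unequally into a small apical cell, which founds most of the embryo, and a larger basal cell, which gives rise to the suspensor. Genes that are on only between fertilization and this first division mark the interval in which control passes to the zygote's own genome.

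Median levels of the 150 genes were 1.35 CPM in egg cells, 31.9 CPM in 12 h zygotes, 23.5 CPM in 24 h zygotes, 2.94 CPM in apical cells and 3.95 CPM in basal cells, as medians over the genes of the group means. Levels at 12 h were between 4.22 and 458 times those of the egg, with a median of 17.6 times, and 97 genes exceeded 10 times. All 6 zygote libraries stood above all 9 egg, apical and basal libraries for 132 of the genes, against 9.02% of the 23806 genes that could be tested, and this count only restates how they were chosen. Of the 150, 119 pair with a single gene of the reference annotation and 17 carry a name there, so 133 are known here only by their ID. All 150 passed the filter on low counts.

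**Figure D1:**
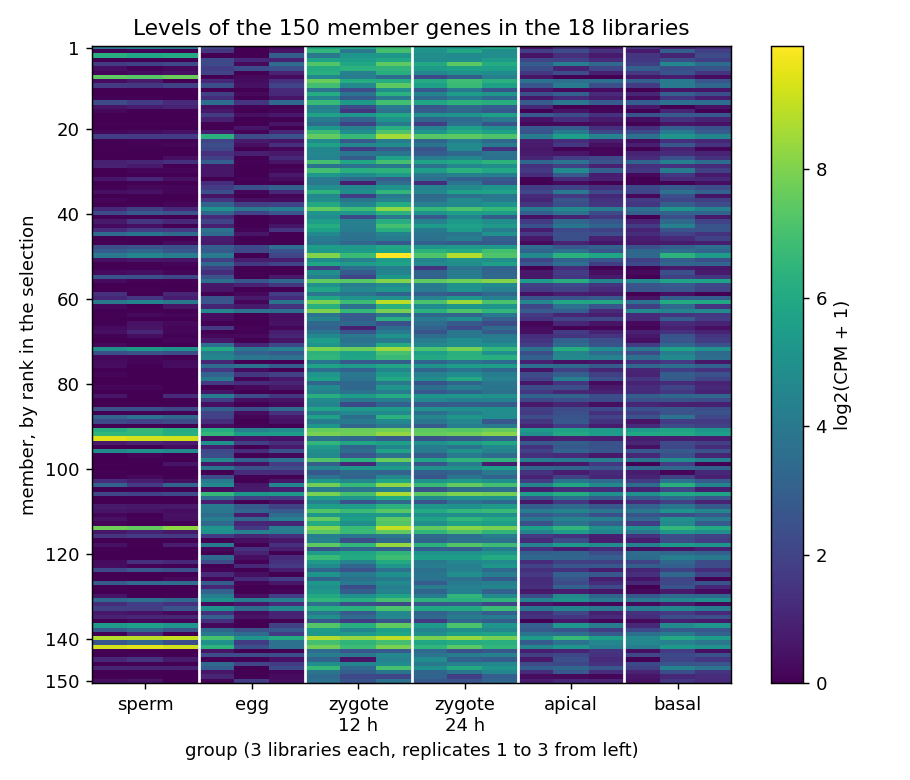
Levels of the 150 genes (rows, in order of rank) in the 18 libraries (columns, 3 per group), as log2(CPM + 1). The zygote columns are bright at nearly all ranks and the egg, apical and basal columns dark, while the sperm columns are dark but for a few bright rows.

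The first gene in rank, GRMZM2G440688, had 3.32, 0 and 0.218 CPM in egg cells, 57.8, 59.8 and 101 CPM in 12 h zygotes, 36.0, 39.5 and 61.8 CPM in 24 h zygotes, 0.349, 1.41 and 0.494 CPM in apical cells, and 2.07, 0.869 and 1.26 CPM in basal cells. The zygote libraries were well clear of all the others. GRMZM2G122277 had 1.19, 0.252 and 1.52 CPM in egg cells, 195, 70.4 and 70.1 CPM in 12 h zygotes, 66.6, 113 and 76.9 CPM in 24 h zygotes, 12.2, 11.3 and 11.3 CPM in apical cells, and 7.14, 16.2 and 5.16 CPM in basal cells. Here the 2 zygote stages overlapped, and every daughter cell library stayed above every egg library. The other 8 of the first 10, GRMZM2G311898, GRMZM2G159899, GRMZM2G154893, GRMZM2G106622, GRMZM2G090152, GRMZM2G340807, GRMZM2G129064 and GRMZM2G366910, had 12 h means between 16.7 CPM (GRMZM2G129064) and 127 CPM (GRMZM2G106622). At the limit of the choice, GRMZM2G169539 (rank 149) and GRMZM2G327692 (rank 150) both scored 1.74, and GRMZM2G075461 and GRMZM2G113332, just outside it, scored 1.74 and 1.73.

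Among the named genes, 5 have symbols of families in the jasmonate pathway, which makes a lipid-derived hormone of wounding, defence and reproductive development. They were placed there by symbol only, and whether each acts in making the hormone was not tested. Lipoxygenases oxidize fatty acids, allene oxide synthase and cyclase turn the product into a cyclic intermediate, oxophytodienoate reductases reduce it, and TIFY proteins of the JAZ kind repress the response until the hormone removes them. The lipoxygenase gene lox5 had 0.0850, 1.26 and 2.56 CPM in egg cells, 7.89, 11.7 and 16.5 CPM in 12 h zygotes, 12.9, 12.5 and 6.0 CPM in 24 h zygotes, 1.24, 4.89 and 0.763 CPM in apical cells, and 0.492, 3.26 and 0.0549 CPM in basal cells. Its zygote libraries were all above the others, by the least margin over the second apical library. The cyclase gene aoc2 had 0.255, 0.631 and 0.762 CPM in egg cells, 16.1, 12.7 and 18.1 CPM in 12 h zygotes, 4.68, 10.5 and 10.6 CPM in 24 h zygotes, 0.737, 1.36 and 1.30 CPM in apical cells, and 0.886, 3.20 and 0.714 CPM in basal cells. All of its 24 h libraries lay below all of its 12 h libraries.

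The reductase genes opr1 and opr2 varied widely between libraries of a group. For opr1 the values were 16.2, 0 and 3.21 CPM in egg cells, 263, 107 and 967 CPM in 12 h zygotes, 144, 435 and 144 CPM in 24 h zygotes, 25.1, 78.9 and 57.6 CPM in apical cells, and 9.16, 83.2 and 43.3 CPM in basal cells. For opr2 they were 5.19, 0.126 and 13.1 CPM in egg cells, 240, 111 and 481 CPM in 12 h zygotes, 132, 348 and 134 CPM in 24 h zygotes, 23.4, 59.7 and 60.1 CPM in apical cells, and 12.8, 68.2 and 59.1 CPM in basal cells. Both were highest in the third 12 h library and the second 24 h library, and their zygote libraries did not overlap with any daughter library. The 2 genes lie 2 protein-coding genes apart in the reference, and their counts are uncertain as separate values, since it is not known how reads shared by close copies were counted. TIFY20, of the repressor family, averaged 13.7 ± 9.92 CPM at 12 h, against 1.41 ± 2.31 CPM in egg cells (SD, n = 3 each).

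Of the transcription factors, NAC1 had 78.7, 3.97 and 4.57 CPM in egg cells, 184, 101 and 371 CPM in 12 h zygotes, 161, 172 and 142 CPM in 24 h zygotes, 16.8, 47.4 and 19.9 CPM in apical cells, and 12.5, 35.4 and 22.5 CPM in basal cells. A single egg library made up most of its egg mean. NAC5 had 6.89, 0.0631 and 0.435 CPM in egg cells, 125, 60.4 and 127 CPM in 12 h zygotes, and 52.1, 63.8 and 83.2 CPM in 24 h zygotes, again with the first egg library above the other two. WRKY53 and WRKY109, of a family best known from defence responses, averaged 45.3 ± 26.0 and 22.5 ± 13.0 CPM at 12 h, against 1.03 ± 1.69 and 1.1 ± 1.09 CPM in egg cells (SD, n = 3 each). The trihelix factor gene THX4 averaged 37.7 ± 13.6 CPM at 12 h, against 6.40 ± 2.53 CPM in egg cells. ULT1, whose Arabidopsis namesake limits the size of shoot and floral meristems, averaged 45.4 ± 8.39 CPM at 12 h, against 7.14 ± 2.95 CPM in egg cells.

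CslF6-1, of the cellulose synthase-like family that makes the mixed-linkage glucan of grass cell walls, had the largest ratio of the 12 h to the egg mean in the module, 458. It had 0.510, 0 and 0.109 CPM in egg cells, 123, 76.2 and 84.6 CPM in 12 h zygotes, 46.3, 78.9 and 60.6 CPM in 24 h zygotes, 2.17, 25.4 and 7.14 CPM in apical cells, and 2.02, 15.9 and 2.64 CPM in basal cells. Its lowest daughter library was above its highest egg library, and the second apical and second basal libraries were the highest of their groups. XAT2, named for the transfer of arabinose onto xylan in cereal walls, averaged 23.2 ± 12.8 CPM at 12 h, against 0.244 ± 0.276 CPM in egg cells. The plasma membrane proton pump gene mha4 had the smallest ratio of the named genes, with 96.2 ± 35.4 CPM at 12 h, against 21.5 ± 10.7 CPM in egg cells, or 4.48 times. PPCK3, a phosphoenolpyruvate carboxylase kinase, averaged 9.44 ± 6.24 CPM at 12 h, against 0.145 ± 0.251 CPM in egg cells. The genes listed as smt2 and Rhodopsin had 12 h means of 27.6 ± 4.49 and 195 ± 95.4 CPM, against 4.65 ± 2.48 and 21.2 ± 8.78 CPM in egg cells (SD, n = 3 each).

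**Figure D2:**
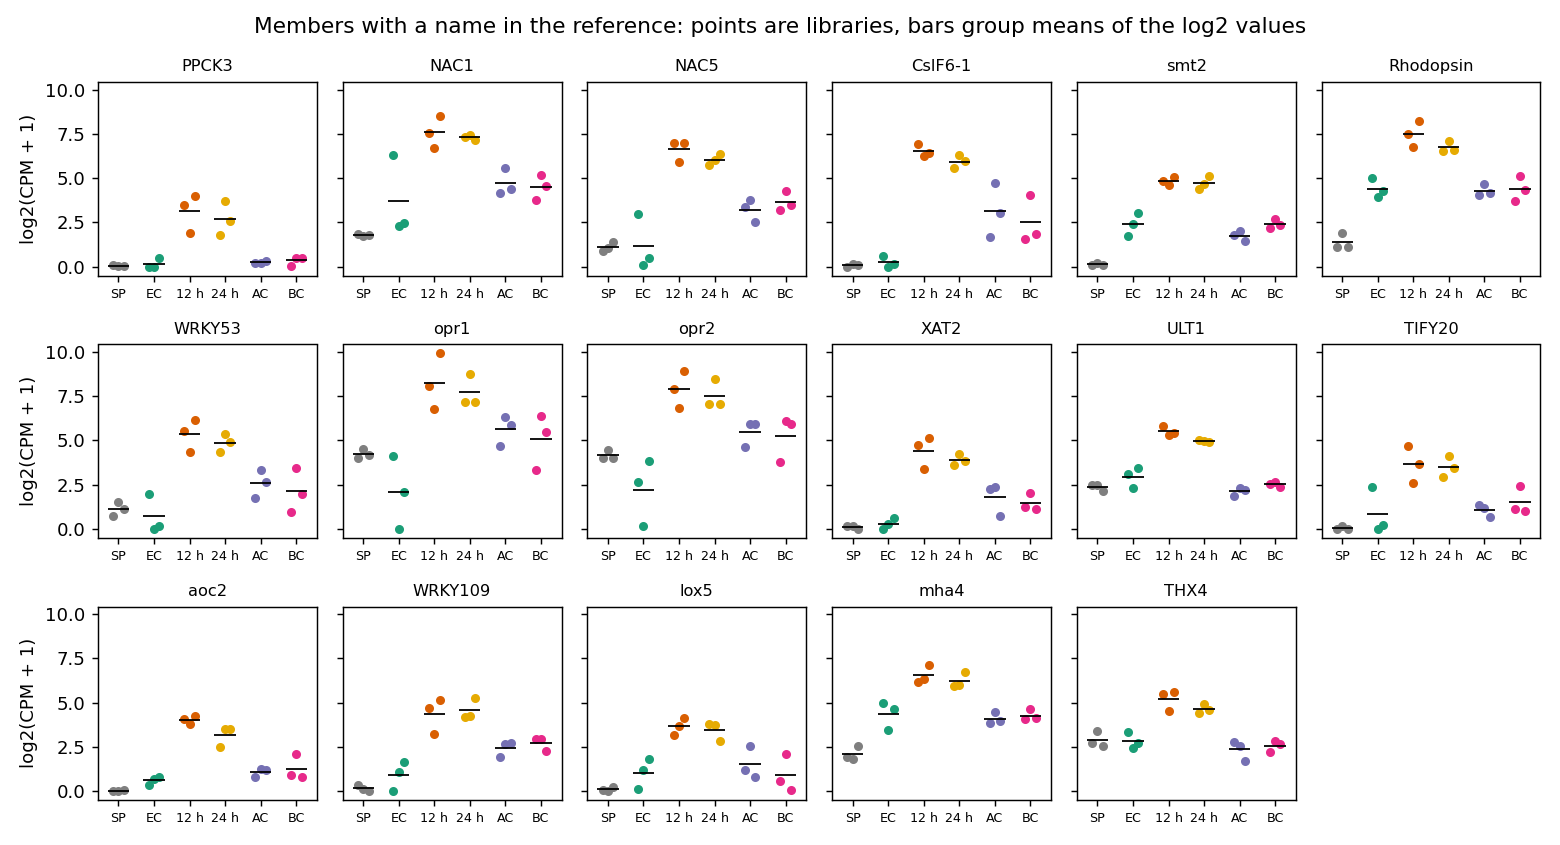
The 17 named genes in all 18 libraries, as log2(CPM + 1) on a shared axis; points are libraries of sperm (SP), egg (EC), zygote 12 h, zygote 24 h, apical (AC) and basal (BC) cells, and bars are means of the log2 values. The zygote points are the highest in every panel, and the egg points of NAC1, opr1 and opr2 are widely spread.

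The named genes fell in few of the 24 gene lists examined. Of the genes tested, 2 of 15 WRKY genes, 2 of 17 NAC genes, 5 of 81 jasmonate and defence genes, 1 of 50 cell wall genes (CslF6-1), 1 of 44 transporter genes (mha4) and 1 of 59 genes of the smaller transcription factor families (THX4) were in the module, against 150 of all 23806, or 0.630%. None of the 26 AP2/EREB, 35 MYB, 22 bHLH, 27 bZIP, 29 homeobox and 27 MADS-box factor genes was in it. Nor was any of the 46 auxin, 39 other hormone, 14 DNA replication, 11 histone, 28 cell cycle or 39 ribosome and translation genes, or of the 31 heat shock and chaperone, 78 signalling, 35 cytoskeleton, 69 chromatin and small RNA, and 65 lipid and primary metabolism genes. The lists were matched by symbol or synonym, and PPCK3, smt2, Rhodopsin, XAT2 and ULT1 fell in none of them. An empty list therefore does not show that genes of that kind were absent from the module. The lists hold named genes, and 17 of the 2010 named genes tested, or 0.846%, were in the module. At that share, lists as short as these would often hold none, so an empty list is not read as a result.

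Within the range the choice allowed, the 24 h mean was the lower for 132 genes and the higher for 18, and it was the lower for 58.8% of all genes tested. The median log2 ratio of 24 h to 12 h was -0.51, against -0.12 over all genes tested, for which 1 CPM was added. All 24 h libraries lay below all 12 h libraries for 15 genes and above them for 1, against 14.3% and 11.0% of all genes tested. That gene, GRMZM2G428670, had 82.5, 65.9 and 119 CPM in 24 h zygotes, against 40.0, 41.6 and 52.7 CPM in 12 h zygotes, and its ratio of 1.99 was just under the upper limit. For the remaining genes the 2 zygote stages overlapped.

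In the daughter cells the module was low again, as the choice required. The mean of the apical and basal levels was a median of 16.2% of the 24 h level, with a range over the genes of 1.42% to 28.0%. Both daughter means were above the egg mean for 96 genes, against 47.4% of all genes tested, both were below it for 29, against 40.7%, and 25 genes had 1 on each side. The median ratio of the daughter mean to the egg mean was 1.76. All 6 daughter libraries stood above all 3 egg libraries for 24 genes, among them CslF6-1, against 19.1% of all genes tested, and all egg libraries stood above all daughter libraries for 0, against 12.5%. The choice used all of these levels, so the counts are descriptions. The embryo sac genes es1, es2 and es4 were also lower in daughters, at 20.9 to 32.1 summed CPM in apical and 112 to 149 in basal libraries, against 834 to 2156 in 24 h zygotes, but they had 500 to 4628 in egg cells. Their part in the low daughter levels was not tested.

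The sperm libraries, which the choice did not use, held little RNA of most of these genes. The median over the 150 genes was 0.179 CPM in sperm, against 1.04 CPM over all genes tested. At least 1 CPM in all 3 sperm libraries was reached by 39 genes, or 26.0%, against 44.6% of all genes tested. The choice kept genes low in egg and daughter cells relative to zygotes, and its effect on these sperm values was not tested. The 25 genes with no read in any sperm library were 16.7% of the module, close to the 15.2% of all genes. All 6 zygote libraries were above all 3 sperm libraries for 136 genes, or 90.7%, against 60.9% of all genes tested. The choice of genes high in zygotes favours that direction.

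A few genes were as high in sperm as in zygotes or higher, so the label as genes of the zygote stage does not hold for them. The 5 genes highest in sperm made up 80.3% of the module's summed sperm level of 2674 CPM. GRMZM2G065498 had 11.7, 9.0 and 6.20 CPM in 12 h zygotes and 4.52, 5.47 and 7.21 CPM in 24 h zygotes, against 709.7, 599 and 586 CPM in sperm. Its egg libraries had 0.340, 0.504 and 0.381 CPM. GRMZM2G177878 had 218, 112 and 239 CPM in 12 h zygotes, against 625, 683 and 596 CPM in sperm. GRMZM2G129064, of rank 8, had 22.9, 17.0 and 10.2 CPM in 12 h zygotes, against 175, 157 and 201 CPM in sperm. The sperm libraries of each of these 3 genes lay above all of their zygote libraries.

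GRMZM2G159899, of rank 3, had 14.2, 35.7 and 37.6 CPM in 12 h zygotes, against 71.7, 56.8 and 65.6 CPM in sperm, and its sperm libraries too were above all zygote libraries. GRMZM2G004349 and GRMZM2G171387 overlapped, with 412 ± 84.6 and 295 ± 205 CPM in 12 h zygotes, against 469 ± 36.6 and 235 ± 60.8 CPM in sperm (SD, n = 3 each). A sperm mean above both zygote means was found for 5 genes, or 3.33%, against 19.8% of all genes tested, and for 11 genes when the libraries were scaled by the trimmed mean of M-values (TMM). The choice of genes high in zygotes favours a low count, so the count is a description only. The sperm gene hap2, needed for gamete fusion, had 294 to 418 CPM in sperm libraries and at most 10.5 CPM in any other. A set of 6 genes that mark the vegetative cell of pollen summed to 428 to 529 CPM in sperm, and what they contributed to the sperm levels above was not tested. The same genes summed to 23.1 to 45.0 CPM in 12 h zygotes, against 15.4 to 45.2 CPM in egg cells. Most of this was prf1, with means of 28.3 CPM at 12 h and 23.2 CPM in egg cells. The set summed to 14.3 to 23.0 CPM in 24 h zygotes, 1.66 to 122 CPM in apical cells and 3.48 to 7.86 CPM in basal cells.

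**Figure D3:**
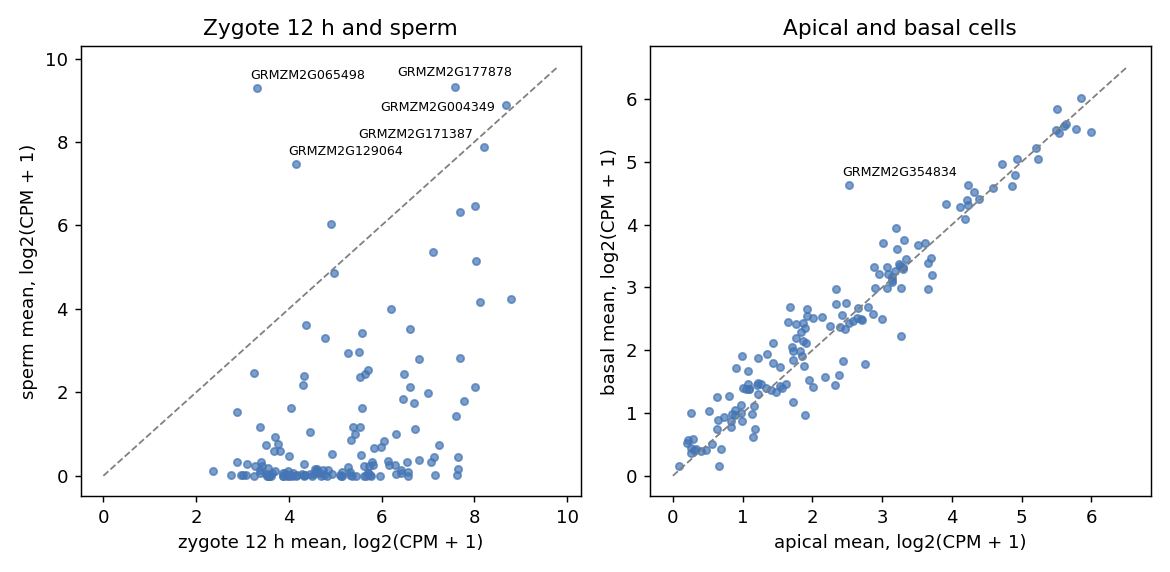
Left, sperm mean against 12 h zygote mean of each of the 150 genes; right, basal mean against apical mean; all axes are log2(mean CPM + 1), each point is a gene, and the dashed line marks equality. In the left panel most points lie near 0 in sperm and the 5 labelled genes carry most of the sperm signal; in the right panel the points follow the line and the labelled gene is above it.

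Between apical and basal cells, no gene of the module passed an adjusted p of 0.05 by edgeR's quasi-likelihood test with Benjamini-Hochberg adjustment. Nor did any of the 23806 genes tested (0.0%). At an unadjusted p of 0.05, 2 genes of the module passed, or 1.33%, against 1267, or 5.32%, of all genes tested. The log2 difference, apical minus basal, had a median of -0.07 over the 150 genes, against 0.03 over all genes tested. It was negative for 85 genes and positive for 65, and within 1 log2 unit for 132, or 88.0%, against 81.8% of all genes tested. Since the genes were chosen for low levels in both daughters, these counts describe them and are not set against the rest as a result. The median standard error was 0.80, so differences of 1 log2 unit in a single gene were not detectable at this depth and number of libraries.

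The gene with the smallest p was GRMZM2G354834, with 6.21, 6.76 and 1.35 CPM in apical cells, against 24.9, 21.3 and 25.3 CPM in basal cells. The libraries did not overlap. Its log2 difference was -2.29 ± 0.48 (SE) with an adjusted p of 0.55 by edgeR's quasi-likelihood test, and DESeq2 called it, at -2.32 with an adjusted p of 0.00291. DESeq2 called 75 genes in all, 26 higher and 49 lower in apical cells, and no other gene of the module. The same gene had 15.6 ± 6.65 CPM in egg cells, 197 ± 86.8 CPM in 12 h zygotes and 103 ± 31.6 CPM in 24 h zygotes (SD, n = 3 each). GRMZM2G169539 and GRMZM2G040364 had log2 differences of -2.19 ± 1.01 and -1.19 ± 0.60 (SE), with adjusted p of 0.936 and 0.944 by edgeR. All basal libraries were above all apical libraries for 8 genes, or 5.33%, against 9.81% of all genes tested, and the reverse held for 2 genes, or 1.33%, against 5.26%.

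Within a group, the genes of the module tended to be high or low in the same libraries. Their summed level was 1484, 401 and 637 CPM in egg cells, 9537, 5333 and 12594 CPM in 12 h zygotes, 5078, 7838 and 6227 CPM in 24 h zygotes, 881, 1771 and 962 CPM in apical cells, and 762, 1811 and 1205 CPM in basal cells. The lowest zygote library was still far above the highest egg or daughter library. The first egg library was the highest of its group for 108 of the 150 genes, or 72.0%, against 54.3% of all genes tested. The second 12 h library was the lowest of its group for 120, or 80.0%, against 36.3%. The second basal library was the highest of its group for 122, or 81.3%, against 47.9%, and the second apical library for 110, or 73.3%, against 41.9%.

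The spread between libraries was accordingly wide for these genes. At 12 h the SD was a median of 44.2% of the mean over the 150 genes, against 23.7% over tested genes with at least 5 CPM. In basal cells the corresponding values were 57.8% and 18.6%, and in apical cells 52.2% and 24.8%. In egg cells they were 102% and 47.7%. The floor of 5 CPM was not applied to the 150 genes. Their median levels were 3.95 CPM in basal, 2.94 CPM in apical and 1.35 CPM in egg cells. The sets therefore differ in level in these groups, and the part of low counts in the wider spread was not tested. In egg cells 63 of the 150 genes had no read in at least 1 library, which leaves their ratios to the egg imprecise. Without the first egg library, 87 of the 150 would be chosen again.

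Some of the named genes belong to families that wounding induces, and the cells were isolated by hand. Of the other genes of a list of WRKY, TIFY, lox, opr and pr genes, 45 were tested. At 12 h relative to egg cells 26 rose and 3 fell by edgeR, against 19.4% and 18.1% of all genes tested. Their median log2 difference was 3.89. All 55 other genes of the list summed to 705 to 906 CPM in egg cells, 1057 to 1245 CPM in 12 h zygotes, 902 to 980 CPM in 24 h zygotes, 454 to 759 CPM in apical cells, and 435 to 642 CPM in basal cells. A few high genes weigh most in this sum, such as TIFY30, with means of 416 CPM in egg cells and 160 CPM at 12 h. Within groups this sum was highest in the third 12 h library and in the second 24 h, apical and basal libraries, which were also the highest for the module. In egg cells it was highest in the second library, in which the module was lowest. A large part of the egg sum was TIFY30 alone, with 271, 615 and 362 CPM in the egg libraries. The order of the egg sums therefore leans on this gene. The part of the isolation in the levels of the module was not tested. Green tissue genes summed to at most 10.9 CPM in any library, and that highest value was in 12 h zygotes. A list of 9 endosperm genes summed to 98.9 to 157 CPM at 12 h, against 104 to 156 CPM in egg cells, most of it from sh1. Within it sh2 averaged 8.40 CPM at 12 h, against 1.87 CPM in egg cells, and bt2 23.9 CPM, against 12.6 CPM, while bap2 and MEG1 were at 0 in every library. The gene mez1, listed for the central cell, averaged 73.9 CPM at 12 h, against 7.81 CPM in egg cells. Its means were higher still in the daughter cells (apical 241 CPM, basal 211 CPM), so it was not particular to the central cell. The other gene listed for the central cell, fie1, averaged 0.0246 CPM at 12 h, 0 CPM in egg cells, 0.0336 CPM in apical cells and 0.0724 CPM in basal cells. The part of other cell types in the levels of the module was not tested.

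**Figure D4:**
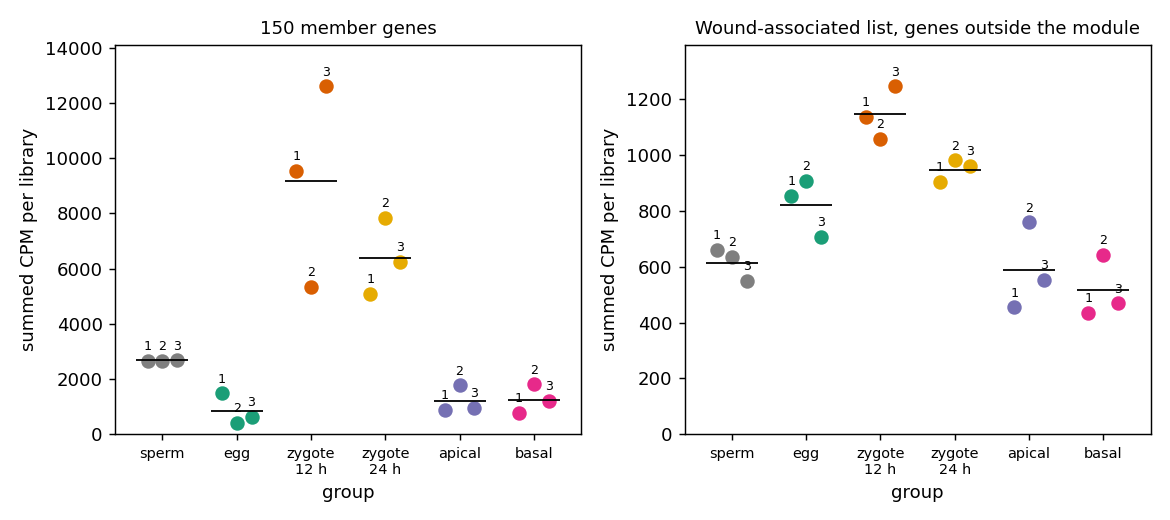
Summed CPM of the 150 genes (left) and of the other genes of the wound-associated list (right) in each library; points are libraries with their replicate number and bars are group means. The module ranges from 5333 to 12594 CPM at 12 h and from 401 to 1484 CPM in egg cells.

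The families of the jasmonate pathway could be followed beyond the module in 33 other tested genes. They are lipoxygenases, allene oxide synthase and cyclase, oxophytodienoate reductases and TIFY or JAZ genes, placed by symbol or synonym only. Of these, 18 rose and 4 fell at 12 h relative to egg cells by edgeR's quasi-likelihood test with Benjamini-Hochberg adjustment, and 11 passed in neither direction. Over all genes tested 19.4% rose and 18.1% fell. The median log2 difference of the 33 genes was 3.89, against 0.06 for all genes tested. The genes of this set were picked out after the levels of the module were known, so the count describes them only.

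The allene oxide synthase gene aos1 had 39.2, 27.3 and 63.5 CPM at 12 h, against 0, 0 and 1.09 CPM in egg cells. Its log2 difference was 6.14 ± 1.30 (SE; adjusted p = 0.00264 by edgeR), though the sum in egg cells rests on a single library. The reductase gene opr3 had 59.7, 36.2 and 183 CPM at 12 h, against 1.36, 0 and 0.0544 CPM in egg cells, a difference of 7.34 ± 1.05 (SE; adjusted p = 0.000270 by edgeR). The lipoxygenase gene lox4 had 65.1, 23.4 and 29.6 CPM at 12 h, against 0.170, 2.02 and 1.14 CPM in egg cells, a difference of 4.42 ± 0.94 (SE; adjusted p = 0.00279 by edgeR). In all of these the groups did not overlap. The related genes lox1 and opr6 had no read in egg cells and 28.9 ± 35.5 and 12.8 ± 9.26 CPM at 12 h, and TIFY27 had 120.2 ± 17.0 CPM at 12 h, against 1.71 ± 1.51 CPM in egg cells (SD, n = 3 each).

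Other genes of the same families fell or did not pass the test. The reductase genes opr7 and opr8, which encode the enzymes that jasmonate synthesis in maize depends on, averaged 30.9 ± 7.17 and 6.04 ± 1.31 CPM at 12 h, against 22.3 ± 19.5 and 4.15 ± 2.87 CPM in egg cells (SD, n = 3 each). Their log2 differences were 0.05 ± 0.54 and 0.08 ± 0.69 (SE), with adjusted p of 0.954 and 0.944 by edgeR. The second cyclase gene, aoc1, had 11.2, 7.03 and 7.19 CPM at 12 h, against 17.9, 19.7 and 14.6 CPM in egg cells, and fell by 1.62 on the log2 scale (adjusted p = 0.0494 by edgeR). TIFY30 had 139, 178 and 162 CPM at 12 h, against 271, 615 and 362 CPM in egg cells, and fell by 2.01 on the log2 scale (adjusted p = 0.000576 by edgeR). TIFY12 and TIFY6 were the other genes that fell. The count that fell was 1 without the third 12 h library, 2 without the second egg library and 1 when libraries were scaled by their totals only.

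In apical cells relative to 24 h zygotes 1 of the 33 genes rose and 8 fell by edgeR, against 13.0% and 11.8% of all genes tested. In basal cells 1 rose and 3 fell, against 9.81% and 8.15%. The gene that rose in both daughters was TIFY6, and opr6, opr7 and TIFY21 fell in both. The number that fell was between 1 and 5 in apical cells, and 1 or 2 in basal cells, when any single library of the groups compared was left out.

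**Figure D5:**
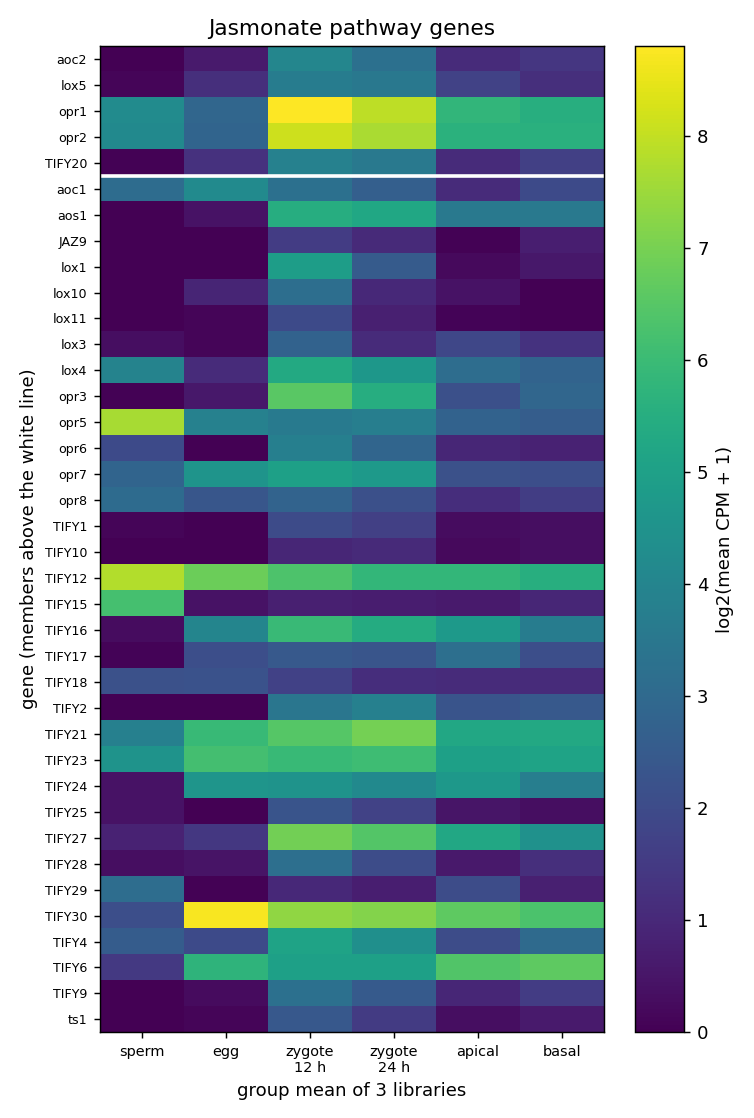
Group means of the 38 tested genes with symbols of jasmonate pathway families, as log2(mean CPM + 1), with the 5 genes of the module above the white line. The zygote columns are brighter than the egg column for the 5 genes of the module and for many others, while TIFY30, TIFY12 and aoc1 are brightest in egg or sperm cells.

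Of the 13 WRKY genes tested outside the module, 8 rose at 12 h relative to egg cells by edgeR and 5 passed in neither direction. Of 15 other NAC genes, 3 rose and 2 fell, and 10 passed in neither direction, beside 19.4% of all genes tested that rose and 18.1% that fell. Of the 76 jasmonate and defence genes outside the module, which include the 33 above, 39 rose and 8 fell at 12 h. A rise was also frequent in lists with no gene in the module. It was found for 17 of 26 AP2/EREB, 14 of 29 homeobox and 6 of 11 histone genes, while 1, 2 and 1 fell. Of the 39 ribosome and translation genes, in contrast, 0 rose and 23 fell. The rise is therefore not particular to the families found in the module.

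The 150 genes were not fully independent units of counting. GRMZM2G014905 and GRMZM2G145305 are matched to the same reference gene. GRMZM2G082032, GRMZM2G350225 and GRMZM2G071249 each share their reference gene with an ID outside the module. GRMZM2G073079 and GRMZM2G076348 are adjacent genes in the reference, as are GRMZM2G482046 and GRMZM2G004349. The library kit does not mark strand, so reads of a gene and of an overlapping antisense gene could not be told apart.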

How the data were processed

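Poly(A) RNA of 18 libraries in 6 groups was analysed. Per the submitters' processing notes, reads were handled with STAR 2.5.2a and featureCounts on B73 RefGen_v3, with cutadapt 1.13, Trimmomatic 0.32, FastQC and DESeq2. The sources used here give no strand or multi-mapping setting. The authors deposited whole-number read counts per gene ID, not normalized; all further values were computed from them. CPM used column totals. Tests used edgeR 4.0.16 (R 4.3.3; filterByExpr, TMM, quasi-likelihood) on the 15 egg, zygote, apical and basal libraries, and 23806 genes were adjusted together; log2 differences and SE come from this fit. DESeq2 1.42.0, other scalings, no filter, left-out libraries and replicate blocks were alternatives, and the script was tested on simulated data. Depth was 11128444 to 25771168 counts per library; the spread between libraries, beyond counting error, limits precision. Names come from the reference NAM-5.0, by symbol for 4 genes and by synonym for 13; synonyms, and the jasmonate set, were adopted after values were seen. Genes described singly were the first 10 in rank, named genes, those at the limit, the 3 with the smallest apical against basal p and the 5 highest in sperm; others were picked after their values were seen. The module and lists were chosen with earlier results of these data known. Promoter and protein sequences were not used here. No library pair agreed within sampling noise.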

Additional observations from a re-analysis of the deposited data

How the results depend on the processing

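Alternatives were set against 8 main counts and 13 other values. Of the recomputed values, 98 for the main counts and 154 for the others stayed within the tolerance set for them, and 6 and 18 moved beyond it. Direction was compared only for the log2 differences of the genes with the smallest apical against basal p, and none of these reversed. Choosing the module by group medians kept 73 of the 150 genes, and leaving out 1 library kept 87 to 136, with 87 without egg replicate 1. Scaling by TMM kept 128 and gave 11 genes with a sperm mean above both zygote means, against 5 throughout the left-out sperm libraries. Zygotes stood clear of egg and daughters for 132 to 145 genes with 1 library left out, against 132 with all. Between 40 and 43 genes were detected in sperm, against 39 with all. Both counts require every library to pass, so leaving 1 out could not lower them. Apical against basal gave 75 genes with DESeq2, 1 of them in the module, 2 when fitted on the apical and basal libraries alone, and 0 with any 1 of the 6 apical and basal libraries left out. At 12 h, 15 to 21 of the other jasmonate genes and 7 to 9 of the other WRKY genes rose with 1 library left out. The number of jasmonate genes that fell in basal cells was 7 with library totals only and 9 with DESeq2, against 3. The cause was not tested. TMM moved the median of all genes at 12 h over egg to 0.06, against 0.58 with library totals. Same-numbered apical and basal libraries had correlations of their deviations of 0.33, 0.36 and -0.00, against -0.40 to 0.11 for differently numbered ones. The main fit did not pair the numbers, and these values do not settle whether they are pairs. With the replicate block 0 genes were called, and 17 jasmonate and 8 WRKY genes rose, against 18 and 8 without it. The block was not run for the other main counts, which come from no test. Depth limits low levels: a gene of the module had as few as 4 reads over 3 egg libraries, and 25 had none in sperm.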
